A study of Mus musculus with 2 samples.

Results

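A set of 10 genes by which fat cells are commonly recognised was followed in RNA from whole mouse ovary: Adipoq, Lep, Retn, Cfd, Plin1, Plin4, Cidec, Lipe, Fabp4 and Car3. They were chosen by name, and all were found once each among the 43346 mouse gene identifiers measured. The RNA came from the ovary of 8-week-old female C57BL/6J mice, littermates per the labels, with no treatment or mutant allele named, in 1 group of 2 libraries called replicate 1 and replicate 2. The labels call them biological replicates and cite the same donor record for both, so the spread between them may be partly technical. The labels name ovary only and say nothing of fat around the organ. No sample of fat alone was analysed here.

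White fat cells store triglyceride in 1 large droplet that is coated by perilipins, and release fatty acids from it when hormones activate lipases at its surface. They also secrete hormones, the adipokines, and proteins such as adipsin. In mice a fat pad lies around the ovary, so fat cells can be part of a dissected ovary, and several of these genes are also used by other cells: Fabp4 by endothelium and macrophages, and Lipe by cells that make steroid hormones.

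The level of a gene is given in TPM, a share of all transcripts that divides by transcript length and so can be set side by side between genes. All 10 genes stood at 1 TPM or more in both libraries, where 62.0% of the 21474 annotated protein-coding genes did. Their median was 152.7 TPM, and that of all protein-coding genes 4.45 TPM. The highest, Cfd, stood 281-fold above the lowest, Lep. Together the 10 genes took 0.299% of the 41124064 gene counts of replicate 1 (95% Wilson interval 0.298% to 0.301%) and 0.346% of the 34930872 of replicate 2 (0.344% to 0.348%), intervals that cover counting error only. Of the 123083 counts of the 10 genes in replicate 1 Cfd held 42778, and of the 120881 in replicate 2 it held 48915. In whole tissue, fewer fat cells and less RNA per fat cell cannot be told apart.

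**Figure D1:**
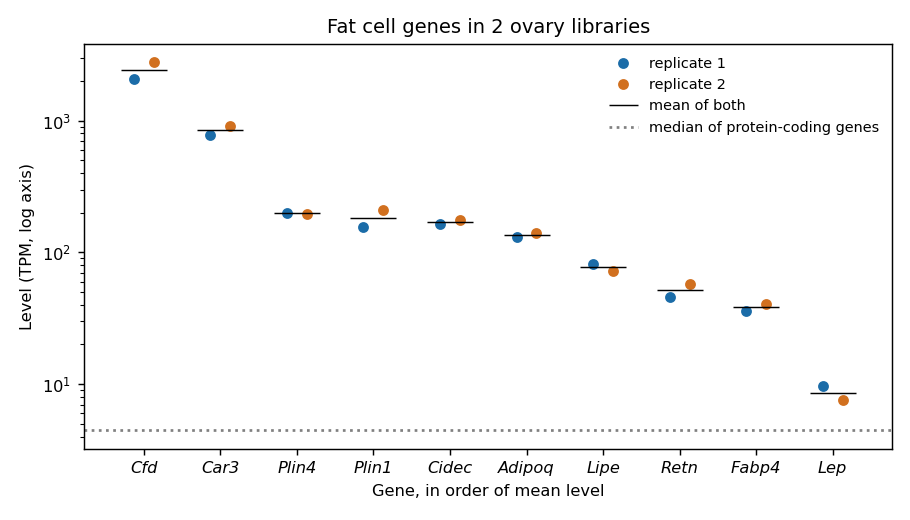
Level of each of the 10 genes (x axis, in order of mean level) in TPM (y axis, log scale). Points are single libraries, short lines the mean of both, and the dotted line the median of all protein-coding genes, 4.45 TPM. All 20 points lie above the dotted line, from Lep at 7.58 to Cfd at 2772 TPM.

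Replicate 2 was set against replicate 1 with a two-sided exact binomial test on the counts after TMM scaling, which equalises the bulk of the genes. This test compares the reads of these 2 libraries and not 2 conditions. Of the 10 genes, 7 were higher in replicate 2, 2 were lower and Plin4 did not pass. Of all 15939 genes tested 56.1% passed, 29.1% higher and 27.0% lower, so a call was common at this depth. The median log2 ratio of the 10 genes was 0.17 and that of all genes -0.01, and the median size of the ratio regardless of sign was 0.21 against 0.23. Scaling to the added ERCC spike-in RNA moves every log2 ratio by -0.43, which gives the 10 genes a median of -0.26 and all genes one of -0.44, with 1 of the 10 then called higher and 7 lower, beside 7.16% higher and 71.7% lower of all genes tested. The direction between the libraries therefore depends on the scaling for Adipoq, Retn, Plin4, Cidec, Fabp4 and Car3, and does not under any scaling tried for Cfd, Plin1, Lep and Lipe.

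**Figure D2:**
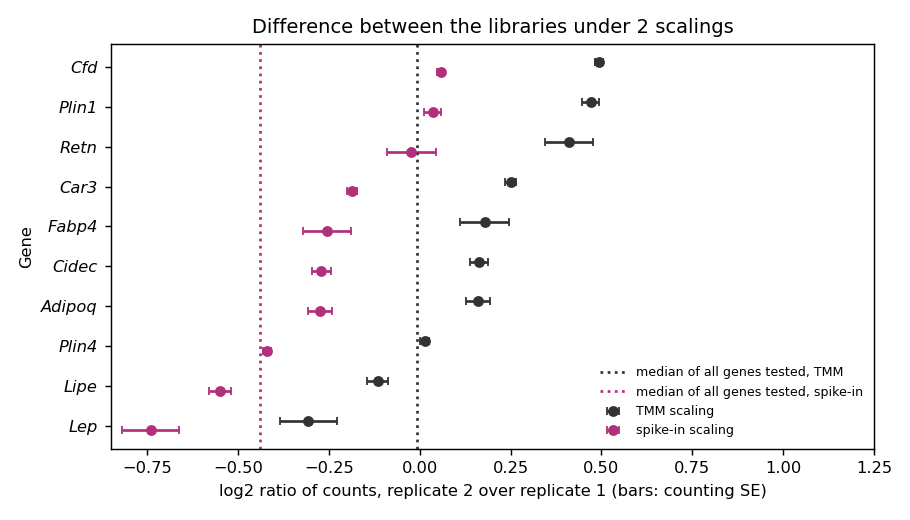
The log2 ratio of counts, replicate 2 over replicate 1 (x axis), for each gene (y axis) under TMM scaling and under spike-in scaling. Bars are the counting standard error and dotted lines the median of all 15939 genes under each scaling. Cfd and Plin1 lie furthest to the right and Lep furthest to the left under both scalings.

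Among those of the 10 genes that encode secreted proteins, Cfd stood by far the highest. It encodes adipsin, also called complement factor D, the protease that cleaves factor B in the alternative complement pathway. Cfd stood at 2081 TPM in replicate 1 and 2772 TPM in replicate 2 (2427 ± 489, SD, n = 2), rank 37 among protein-coding genes. Its log2 ratio was 0.49 ± 0.010 (counting SE), and 0.06 with spike-in scaling. Cfd held 56.4% of the summed TPM of the 10 genes in replicate 1 and 60.6% in replicate 2. The gene lies on chromosome 10 at 79890853 to 79892655 (mm10, plus strand) and has 1 transcript in the annotation.

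Adipoq encodes adiponectin, a hormone made almost only by fat cells, and lies on chromosome 16 at 23146536 to 23158028 on the plus strand. It stood at 131.6 TPM in replicate 1 and 140.8 in replicate 2 (136.2 ± 6.46, SD, n = 2). The libraries lay close together, with a log2 ratio of 0.16 ± 0.033 (counting SE; exact binomial test, Benjamini-Hochberg adjusted p = 3e-06) that turns to -0.27 with spike-in scaling. Cfd was 15.8 times Adipoq in replicate 1 and 19.7 times in replicate 2, a ratio of TPM within a library that no scaling changes.

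Retn encodes resistin, which in mice is made by fat cells, and lies on chromosome 8 at 3655770 to 3660110 on the plus strand. It stood at 45.8 TPM in replicate 1 and 57.4 in replicate 2 (51.6 ± 8.16, SD, n = 2). Its log2 ratio of 0.41 ± 0.067 (exact binomial test, adjusted p = 5.6e-09) became -0.02 with spike-in scaling and was then not called (adjusted p = 0.77).

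Lep encodes leptin, the hormone that reports fat stores to the brain, and lies on chromosome 6 at 29060220 to 29073877 on the plus strand. It was the lowest of the 10 genes, at 9.67 TPM in replicate 1 and 7.58 in replicate 2 (8.63 ± 1.48, SD, n = 2), rank 8891 among protein-coding genes. Lep was lower in replicate 2, with a log2 ratio of -0.31 ± 0.078 (exact binomial test, adjusted p = 0.00021) and of -0.74 with spike-in scaling. Bonferroni adjustment under TMM scaling ended the call. It rests on 866 and 569 counts, the fewest in each library among the 10.

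The windows of 250 bases before the RefSeq start sites of Adipoq and Lep are shown because these are the hormones most closely tied to fat cells, with capitals for matches to 7 motifs on either strand, printed 5′ to 3′ from RefSeq on GRCm38. The Adipoq window is chr16:23146286-23146535 and that of Lep is chr6:29059971-29060220, both on the plus strand.
Adipoq: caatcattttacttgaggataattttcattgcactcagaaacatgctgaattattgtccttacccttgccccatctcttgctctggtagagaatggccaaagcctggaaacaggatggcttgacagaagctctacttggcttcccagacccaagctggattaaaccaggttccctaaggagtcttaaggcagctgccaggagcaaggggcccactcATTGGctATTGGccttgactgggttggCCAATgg
Lep: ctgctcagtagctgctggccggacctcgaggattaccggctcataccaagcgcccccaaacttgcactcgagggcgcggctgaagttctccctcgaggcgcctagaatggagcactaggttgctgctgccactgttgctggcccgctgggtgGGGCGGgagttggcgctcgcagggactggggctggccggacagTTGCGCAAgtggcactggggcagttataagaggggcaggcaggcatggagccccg
The capitals in Adipoq are 3 matches to CCAAT, a box found near many promoters, that begin 34, 27 and 7 bases before the start, the first 2 of them on the opposite strand. Those in Lep are a match to TTGCNNAA, the core letters bound by C/EBP proteins, 55 bases before the start, and a GC box, GGGCGG, 98 bases before it. Of the 10 genes 8 matched a RefSeq window, with 10 windows in all, since Cidec and Lipe have a pair each. TTGCNNAA was in 3 of these 10 windows and in 9.56% of all 32851, CCAAT in 2 and in 33.8%, GGGCGG in 2 and in 32.7%, and the E-box CACGTG in 1 and in 6.02%. TATAAA, the nuclear receptor motif AGGTCA and the PPAR DR1 element, which repeats AGGTCA after 1 base, were in none of the 10, and in 12.4%, 14.0% and 0.0335% of all windows. Both strands were searched, each DR1 match also counts as one of AGGTCA, and a match is a match of letters only.

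Other genes of adipokine signalling were present at lower levels than Cfd. The receptors of adiponectin, Adipor1 (121.6 ± 22.9 TPM, SD, n = 2) and Adipor2 (55.3 ± 1.57), lay in the range of Adipoq and Retn. Lepr, the leptin receptor, stood at 2.41 ± 0.226 TPM. Cdh13, a cadherin that binds adiponectin, stood at 9.33 ± 0.842 TPM and Cap1, reported as a resistin receptor, at 62.2 ± 3.45. Of these 5 genes 1 was called higher in replicate 2 (Adipor1) and 1 lower (Cap1), and with spike-in scaling all 5 had log2 ratios below 0. The calls in these and the following lists are those under TMM scaling, where 29.1% of all genes tested were called higher and 27.0% lower. With spike-in scaling the median log2 ratio was below 0 in all 22 other lists examined. That scaling moves every ratio by -0.43, and the median of all genes tested was then -0.44.

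In the alternative complement pathway Cfd stood above the other genes described. C3, the central component, stood at 209.8 ± 34.5 TPM (SD, n = 2), and properdin, Cfp, at 33.0 ± 2.45. Cfb, the substrate of adipsin, stood at 20.2 ± 6.00 TPM and the receptor C3ar1 at 5.04 ± 1.71. Cfd, C3 and Cfp were called higher in replicate 2, and Cfb and C3ar1 lower. With spike-in scaling C3 (-0.05) and Cfp (-0.26) had negative log2 ratios as well.

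Of the resistin family, Retn was the highest. Retnla stood at 20.5 ± 5.18 TPM (SD, n = 2), Retnlg at 3.89 ± 0.219, and Retnlb had 0 counts in both libraries.

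Plin4, Plin1 and Cidec, whose proteins act at the droplet surface, stood close to each other in RNA level. Plin4, a perilipin of nascent droplets with a long repeat region, stood at 199.4 TPM in replicate 1 and 195.9 in replicate 2 (197.6 ± 2.41, SD, n = 2). Plin1, the perilipin that gates lipase access in fat cells, stood at 156.8 and 209.5 TPM (183.1 ± 37.3). Cidec, which fuses droplets into the single large one of white fat, stood at 163.3 and 175.2 TPM (169.2 ± 8.42).

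The values of Plin1 enclosed those of Plin4 and of Cidec, so neighbours in this order did not differ beyond their spread. Plin1 had the larger log2 ratio, 0.47 ± 0.023 (counting SE; exact binomial test, adjusted p = 9e-94), which fell to 0.04 with spike-in scaling and was then not called (adjusted p = 0.14). Cidec had one of 0.16 ± 0.025 (exact binomial test, adjusted p = 2.4e-10), -0.27 with spike-in scaling. Plin4 had one of 0.01 ± 0.012 (exact binomial test, adjusted p = 0.31), and -0.42 with spike-in scaling. Plin1 lies on chromosome 7 at 79720218 to 79732903 (minus strand), Plin4 on chromosome 17 at 56100591 to 56109803 (minus strand) and Cidec on chromosome 6 at 113424634 to 113435760 (minus strand).

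Plin4 overlaps Hdgfl2 on the opposite strand, which stood at 30.6 TPM in replicate 1 and 52.4 in replicate 2. The libraries are stranded per the labels, but no source used here says whether counting used the strand, so reads of the overlap may be shared. Plin5, the perilipin of tissues that burn fatty acids, is the next gene beside Plin4, 1798 bases away. It stood at 38.9 TPM in replicate 1 and 18.1 in replicate 2 (28.5 ± 14.7, SD, n = 2), with a log2 ratio of -1.05 ± 0.060 (counting SE).

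Across the whole perilipin family, Plin2, the perilipin of most cell types, stood at 152.3 ± 10.8 TPM (SD, n = 2) and Plin3 at 93.8 ± 7.12. Of the 5 perilipins 1 was called higher and 3 lower, beside 29.1% and 27.0% of all genes tested. With spike-in scaling only Plin1 had a log2 ratio above 0, where the median of all genes tested was -0.44. In the CIDE family Cidec stood far above Cidea (3.42 ± 0.276 TPM), which marks brown fat, and Cideb (1.79 ± 0.0283), which is known from liver.

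Lipe encodes hormone-sensitive lipase, which cleaves diglyceride in fat cells and cholesteryl esters in steroid-making cells. It lies on chromosome 7 at 25379527 to 25398710 on the minus strand. It stood at 81.5 TPM in replicate 1 and 72.8 in replicate 2 (77.2 ± 6.20, SD, n = 2). Lipe was lower in replicate 2, with a log2 ratio of -0.12 ± 0.029 (exact binomial test, adjusted p = 0.00018), and of -0.55 with spike-in scaling. Under TMM scaling this call, too, was lost with Bonferroni adjustment. An antisense gene on the other strand of Lipe, 4732471J01Rik, stood at 0.32 and 1.05 TPM.

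Fabp4 encodes aP2, the fatty acid binding protein that is among the most abundant proteins of fat cells, and lies on chromosome 3 at 10204088 to 10208576 on the minus strand. It stood at 35.9 TPM in replicate 1 and 40.9 in replicate 2 (38.4 ± 3.51, SD, n = 2), which placed it ninth of the 10. Its rank among protein-coding genes was 4194. The log2 ratio was 0.18 ± 0.067 (exact binomial test, adjusted p = 0.015), and -0.26 with spike-in scaling. The call was lost with scaling to the total count (0.12, adjusted p = 0.13 in the exact binomial test) and with Bonferroni adjustment. The neighbours Fabp9 and Fabp12 had 0 counts, and of the 10 genes of the binding protein family 3 passed 1 TPM in both libraries. The others that passed were Fabp3, the muscle form, at 81.2 ± 8.11 TPM and Fabp5 at 17.5 ± 3.25.

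Car3 encodes carbonic anhydrase 3, a cytosolic enzyme of low activity that abounds in fat, liver and slow muscle. It lies on chromosome 3 at 14863512 to 14872523 on the plus strand. It stood at 782.8 TPM in replicate 1 and 904.1 in replicate 2 (843.5 ± 85.8, SD, n = 2), rank 121 among protein-coding genes. Its log2 ratio was 0.25 ± 0.014 (exact binomial test, adjusted p = 1.1e-65), and -0.19 with spike-in scaling. Of the 16 carbonic anhydrase genes 10 passed 1 TPM in both libraries. The next highest were Car2, which lies beside Car3, at 115.6 ± 4.46 TPM and Car14 at 78.8 ± 16.7. Car1, on the other side, stood at 0.18 and 0 TPM.

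In the order of mean level the genes ran Cfd, Car3, Plin4, Plin1, Cidec, Adipoq, Lipe, Retn, Fabp4 and Lep. In 7 of the 9 neighbouring pairs the libraries' values did not overlap, and in the other 2, Plin4 with Plin1 and Plin1 with Cidec, they did. The ratios between neighbours ran from 1.08 to 4.45, the largest between Fabp4 and Lep. The place of Car3 depends on which of its transcripts are counted. With protein-coding transcripts only it stood at 189.9 TPM, between Plin4 and Plin1, and 3 neighbouring pairs overlapped.

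The deposited transcript tables divide each gene's TPM among its annotated forms, and for Car3 most of it went to forms without the full coding sequence. The annotation lists 24 transcripts for the 10 genes. In 9 genes the leading transcript was protein-coding, and in Car3 it was Car3-203, a transcript annotated as a retained intron. Car3-203 was given 61.9% of the gene's TPM in replicate 1 and 60.4% in replicate 2. The other retained-intron form, Car3-202, was given 10.7% and 21.3%. Car3-201, the protein-coding form with 7 exons, was given 27.4% and 18.3%. Its part of the counts was larger, since TPM divides by length. Of 20350 Car3 counts in replicate 1 Car3-201 held 9201, Car3-203 8253 and Car3-202 2896. Of 19666 in replicate 2 they held 5987, 8037 and 5642.

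Both retained-intron forms together held 72.6% of Car3 TPM in replicate 1 and 81.7% in replicate 2 (77.2% ± 6.45, SD, n = 2). Among the 5117 protein-coding genes that have both kinds of transcript and average 100 counts or more, the median share was 7.60%, and 9.73% of these genes had at least 50% in both libraries. Car3 lay at the 96.8th percentile of them. Counted by its coding form alone, Car3 stood at 214.5 TPM in replicate 1 and 165.3 in replicate 2. The gene's TPM was thus higher in replicate 2, by 0.21 on the log2 scale, while that of its coding form was lower, with a log2 ratio of -0.38.

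Where the retained-intron forms differ from the coding one is shown on the plus strand of chromosome 3, from GENCODE M21 transcripts on GRCm38, with intron bases in capitals and exon bases in lower case. The first stretch, chr3:14864408-14864487, runs from exon 2 of Car3-201 into the intron that Car3-202 keeps. The next, chr3:14869178-14869274, runs from the start of Car3-203, at the end of the intron after exon 4, into exon 5.
Car3-202: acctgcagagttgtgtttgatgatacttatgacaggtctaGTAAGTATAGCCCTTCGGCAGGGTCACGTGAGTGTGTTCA
Car3-203: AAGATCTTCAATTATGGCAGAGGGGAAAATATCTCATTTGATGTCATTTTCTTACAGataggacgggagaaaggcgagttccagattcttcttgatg
Car3-202 holds 1103 bases of that 2355-base intron among its 1395 bases. Car3-203 is 804 bases long, of which 57 are intron, all of them shown, and 747 are also in the coding form. How reads over the shared bases were divided between the forms was not tested.

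For Lipe the assigned forms turned on the start of transcription. Lipe-202, which starts at the inner first exon, was given 97.8% of Lipe TPM in replicate 1 and 97.4% in replicate 2. Lipe-201, which starts further upstream, was given 2.14% and 2.41%, and the remaining 2 forms less than either. The deposited tables list Lipe-202 with 2656 bases and Lipe-201 with 3221, where the annotation used here has 2661 and 3613, so their starts there may differ. The window before the RefSeq start of the inner exon is printed because most of Lipe was assigned there. It is chr7:25390113-25390362 on the minus strand, printed 5′ to 3′, and holds none of the 7 motifs, so it has no capitals.
Lipe: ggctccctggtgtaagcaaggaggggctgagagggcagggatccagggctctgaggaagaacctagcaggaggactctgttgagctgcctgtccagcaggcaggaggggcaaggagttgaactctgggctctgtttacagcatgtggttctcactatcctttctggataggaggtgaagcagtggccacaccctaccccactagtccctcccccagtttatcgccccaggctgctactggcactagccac
The window of the upstream RefSeq start held 6 GC boxes and the E-box, and is not printed because its bases lie in an annotated exon.

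In Plin1, Plin1-202 was given 77.9% and 79.95% of the TPM and Plin1-201 the rest. Both are protein-coding and share most exons, and Plin1-202 is listed with 1860 bases in the deposited tables and 1841 in the annotation used here, so its form there may differ. In Cidec, Cidec-202 was given 68.9% and 65.4% and Cidec-201 28.3% and 32.5%, forms with the same exons except for both limits of the first and the end of the last. Fabp4-202, a retained intron over most of the gene, was given 7.61% of Fabp4 TPM in replicate 1 and 6.16% in replicate 2. It is 4231 bases long, and its share of the tested counts was larger. It held 323 of the 978 Fabp4 counts in replicate 1 and 249 of the 900 in replicate 2. Adipoq-201, Plin4-202, Retn-201 and Lep-201 each held between 98.2% and 100% in both libraries. The largest difference of a share between the libraries was 10.6 percentage points in Car3 and at most 4.11 in the other 8 genes with several forms, where the median over 9449 genes was 7.47.

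**Figure D3:**
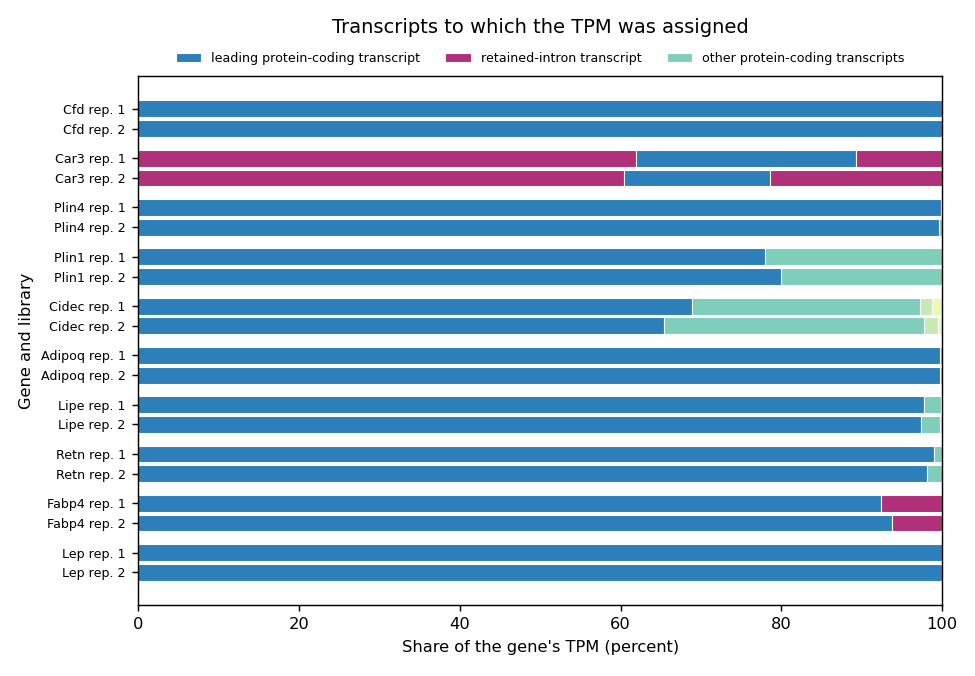
Share of each gene's TPM in percent (x axis) given to each annotated transcript, in each library (y axis). Blue marks the leading protein-coding transcript, green and yellow the other protein-coding ones and magenta those annotated as retained introns. Magenta fills 72.6% and 81.7% of Car3 and a small part of Fabp4.

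Other genes of white fat cells were also present, with a lower median and a range that overlapped that of the 10 genes. Of 20 further white fat cell genes 19 passed 1 TPM in both libraries, Acvr1c being below, with a median of 40.4 TPM. The highest were Cebpa, a transcription factor of fat cell maturation (258.3 ± 74.5 TPM, SD, n = 2), Nnat (240.9 ± 46.5) and the angiotensinogen gene Agt (179.5 ± 34.7). Of the 20, 7 were called higher in replicate 2 and 7 lower, beside 29.1% and 27.0% of all genes tested. With spike-in scaling 18 had a log2 ratio below 0, where the median of all genes tested was -0.44. Cd36, the fatty acid transporter of fat cells and capillaries, was singled out after its values were seen. It stood at only 6.79 TPM in replicate 1 and 5.01 in replicate 2.

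Genes of the pathways that fill and empty the droplet were present in both libraries. Over all genes tested 29.1% were called higher and 27.0% lower, and 62.0% of protein-coding genes passed 1 TPM in both libraries. All 12 genes of lipolysis passed 1 TPM, with 9 called higher and 3 lower. Pnpla2, the triglyceride lipase that acts before Lipe, stood at 231.3 ± 15.4 TPM (SD, n = 2), and Prkar2b, a regulatory subunit of the kinase that activates Lipe, at 199.8 ± 72.0. All 10 genes of triglyceride synthesis passed, with 5 higher and 1 lower, led by Dgat2 (255.9 ± 41.3 TPM), Gpam (174.1 ± 8.02) and the seipin gene Bscl2 (173.3 ± 1.89). All 10 of fatty acid synthesis passed, with 4 higher and 5 lower, led by Fasn (1327 ± 273 TPM), Scd2 (295.9 ± 48.8) and Scd1 (281.3 ± 52.9).

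All 9 genes of fatty acid uptake passed 1 TPM, with 4 higher and 4 lower, beside 29.1% and 27.0% of all genes tested. Slc27a1, a fatty acid transporter, stood at 311.2 ± 12.4 TPM (SD, n = 2), Vldlr at 118.2 ± 67.2 and lipoprotein lipase, Lpl, at 116.9 ± 29.4. Of 11 fat cell transcription factors 10 passed and Ebf2 did not, with 7 higher and 2 lower. Cebpb led them at 1131 ± 225 TPM, and Srebf1 stood at 238.3 ± 17.8. With spike-in scaling the median log2 ratio of lipolysis went from 0.32 to -0.11 and of triglyceride synthesis from 0.06 to -0.37. That of the transcription factors went from 0.24 to -0.20, and that of all genes tested from -0.01 to -0.44. These lists share genes with each other and some hold Plin1, Lipe or Fabp4, and none is particular to fat cells.

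Genes of brown and beige fat had a lower median than the 10 genes. Of 10 such genes 7 passed 1 TPM in both libraries, where 62.0% of protein-coding genes did. The median of the list was 3.22 TPM, beside 4.45 TPM for all protein-coding genes. The highest were Prdm16 (10.4 ± 2.30 TPM, SD, n = 2), Cox7a1 (7.03 ± 1.26, from 32 and 24 counts) and Cox8b (4.46 ± 0.799, from 20 and 15). Ucp1, the uncoupling protein that defines brown fat, stood at 0.10 and 0.06 TPM, from 4 and 2 counts. Elovl3 and Zic1 had 0 counts. All 9 genes of fat cell progenitors passed, with a median of 16.6 TPM, led by Cd34 (59.4 ± 8.18 TPM), Ly6a (47.6 ± 13.2) and F3 (42.3 ± 11.6), 3 higher and 4 lower.

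Markers of the ovary itself were present, the granulosa and theca genes at a higher median than the 10 fat cell genes and the oocyte genes at a lower one. All 10 granulosa and theca genes and all 7 oocyte genes passed 1 TPM in both libraries, with medians of 267.9 and 40.9 TPM. Inha, the inhibin alpha subunit, stood at 6838 ± 790 TPM (SD, n = 2), Hsd3b1 at 1497 ± 272 and Cyp11a1 at 1334 ± 11.9, and Zp3, Gdf9 and Zp1 of the oocyte at 168.8 ± 24.8, 95.5 ± 16.3 and 49.7 ± 12.5. Summed over each list, granulosa and theca genes went from 11861 TPM in replicate 1 to 10195 in replicate 2 (3 genes higher, 7 lower) and oocyte genes from 424 to 332 (0 higher, 5 lower). The 10 fat cell genes went from 3688 to 4576 TPM (7 higher, 2 lower), with Cfd alone going from 2081 to 2772. The 20 other white fat cell genes went from 1528 to 1554 TPM (7 higher, 7 lower). The part of these shifts in any single difference was not tested. Calls over all genes tested were 29.1% higher and 27.0% lower.

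Markers of other cells that hold some of these genes were present in both libraries. All 11 endothelial markers passed 1 TPM, summing to 1185 TPM in replicate 1 and 1235 in replicate 2, with Egfl7 (333.2 ± 45.2, SD, n = 2), Sox17 (284.6 ± 58.0) and Sox18 (200.2 ± 9.12) the highest, 4 higher and 4 lower. All 9 macrophage markers passed, summing to 758 and 606 TPM, led by C1qc (182.9 ± 9.36), Lyz2 (173.3 ± 56.2) and C1qb (139.7 ± 25.7), 0 higher and 4 lower. Their part in Fabp4 was not tested. Over all genes tested 29.1% were called higher and 27.0% lower.

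All 7 measured markers of mesothelium and surface epithelium passed, summing to 644 and 824 TPM, with Krt19 (358.4 ± 84.0), Wt1 (205.4 ± 8.11) and Upk3b (76.5 ± 10.3) the highest, 6 higher and 0 lower. Of 10 skeletal muscle markers 5 passed 1 TPM, summing to 33.9 and 37.3 TPM, led by Acta1 (20.2 ± 0.658), Tnni2 (6.55 ± 1.64) and Actn3 (3.26 ± 0.325) while Myh4 had 0 counts. Their part in Car3 was not tested. For all genes tested the calls were 29.1% higher and 27.0% lower, and 62.0% of protein-coding genes passed 1 TPM in both libraries.

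**Figure D4:**
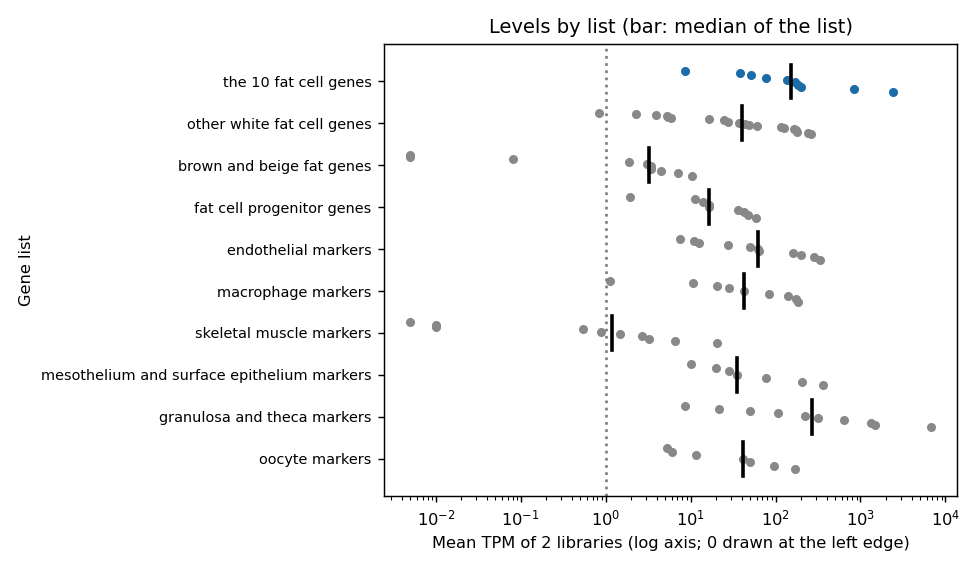
Mean TPM of each gene (points, x axis, log scale) by list (y axis), with a bar at each list's median and a dotted line at 1 TPM. Genes at 0 are drawn at the left edge. The 10 fat cell genes, in blue, have a median of 152.7 TPM, between the granulosa and theca markers at 267.9 and the brown and beige fat genes at 3.22.

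The GC content of the transcripts was compared with the levels after the low levels of Fabp4 and Cd36 had been seen. The leading transcript of Fabp4 had 40.3% GC, at the 2.88th percentile of 14750 protein-coding genes tested, and that of Cd36 had 38.4%, at the 0.793rd. Plin1 (61.3%), Lipe (58.6%) and Cfd (58.4%) lay at the other end among the 10. The white fat cell genes with lower means than Cd36 ranged more widely. Tusc5 had 53.9% GC, Pck1 53.2%, Aqp7 49.7%, Lgals12 47.45% and Acvr1c 40.1%. Over all 14750 genes the median was 2.09 TPM below 40% GC and 43.1 TPM above 60%. Spearman's rho of GC and mean TPM was 0.42 over those genes, 0.48 over the 10 and 0.58 over the 30 white fat cell genes. For the log2 ratio between the libraries rho was 0.18, 0.29 and 0.30. These 6 values describe genes that share their libraries, and the part of GC in any level was not tested. Fabp4, at 38.4 TPM, stood above the median of 4.12 TPM of genes with 40% to 45% GC, and Lep, at 8.63 TPM, at about the median of 8.73 TPM of those with 45% to 50%.

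**Figure D5:**
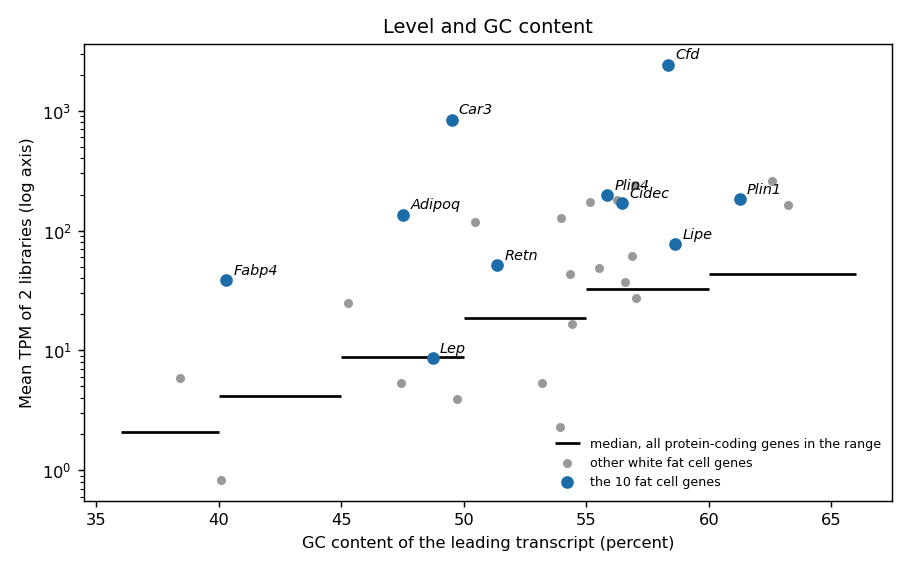
Mean TPM (y axis, log scale) against the GC content of the leading transcript in percent (x axis). Blue points are the 10 fat cell genes, grey points 20 other white fat cell genes and black lines the median of all protein-coding genes tested in each range of GC. Lep lies at the black line of its range, and the other 9 blue points lie above theirs.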

How the data were processed

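RNA of 2 ovary libraries was sequenced from both ends, with reads of 76 bases, after depletion of ribosomal RNA and selection for poly(A) tails and for lengths over 200 nucleotides, per the labels. No source used here names the aligner or quantifier. Expected counts, deposited by the authors, are estimates that can be fractional. TPM and FPKM in the deposited tables are both divided by effective length. The authors also deposited the percent of each gene's TPM held by each transcript. They further deposited posterior means and interval bounds. Files are on mm10, with GENCODE M4 per the accompanying notes. Names and coordinates are from GENCODE M21 (42462 of 43346 identifiers matched). The 96 spike-in rows held 0.764% and 0.986% of counts and were left out of library sizes, and 26249 other rows held 0.

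Expected counts were rounded. Genes averaging 20 counts or more were tested with a two-sided exact binomial test at TMM-scaled library sizes (edgeR 4.0.16, R 4.3.3), adjusted by Benjamini-Hochberg at 0.05, with ratios at a prior count of 1. edgeR's quasi-likelihood test has no residual degrees of freedom with 1 library a side. Standard errors of ratios cover counting only, and p-values only these 2 libraries, whose biological coefficient of variation was 0.203. DESeq2 1.42.0 gave other size factors. Python 3.11.15, scipy 1.17.1, pandas 2.3.3 and matplotlib 3.10.9 did the rest. The test was tried on data simulated with counting noise only, where it missed some changed genes, mostly of low count. The pass mark, first set over all changed genes, was not met and was reset to those with a mean count of at least 100. The simulation held no other spread between libraries, so it cannot give the rate of false calls in these data.

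The genes and the 22 other lists were chosen with earlier results of these data known. Named beside the 10 genes are all genes of lists of up to 6, the 3 highest of longer lists, up to 3 of those below 1 TPM, and neighbours in the genome, except that a few listed genes and 1 list are not reported here. The GC comparison, the 7 motifs, the intron sequences, the retained-intron comparison and the coding-form level were chosen after seeing the data. Muc16, a listed marker, was not measured, and Tusc5 was matched through a synonym. Tables on the older build mm9 were not used here.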

Additional observations from a re-analysis of the deposited data

How the results depend on the processing

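Scaling decided most of what changed. With spike-in scaling, 1 of the 10 genes was called higher in replicate 2 and 7 lower (7.16% and 71.7% of all genes), and their median log2 ratio was -0.263. With scaling to the total count the median was 0.108. With DESeq2 size factors, no filter, a mean count of at least 100 or posterior mean counts it moved by less than a margin. So it did with log2(TPM + 1) and log2(TPM + 0.1). The margin was the 95% counting error of a single ratio, at the median SE of the 10 genes. Of 70 single log2 ratios under alternatives, 58 kept direction and side of the threshold, 5 lost the call (Plin1 with spike-ins, Fabp4 with the total count, and Lep, Lipe and Fabp4 with Bonferroni) and 7 reversed. Spike-in scaling reversed Adipoq (-0.274), Plin4 (-0.420), Retn (-0.023), Cidec (-0.270), Fabp4 (-0.255) and Car3 (-0.185), and the total count reversed Plin4 (-0.049). Bonferroni adjustment left 0 genes called lower, since it asks for a smaller p. At 100 TPM or more in both libraries stood 6 genes. Over nuclear protein-coding genes only, TPM was higher by construction: Adipoq 154.1, Plin4 223.7, Cidec 191.5, Fabp4 43.4, Lipe 87.4 and Car3 954. Posterior mean TPM put Plin4 at 194.8, and posterior shares Adipoq-201 at 99.6% and Lep-201 at 97.5%. The coding form alone, an alternative chosen after seeing the data, put Car3 at 189.9 TPM, between Plin4 and Plin1, with 3 overlapping neighbouring pairs. The cause of the coding form's difference between libraries was not tested. No ratio could be had without replicate 1 or 2. No paired analysis was possible because the design has 1 group. With 2 libraries, a spread has 1 degree of freedom.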
